A study of Mus musculus with 20 samples.

Results

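The genes described here are 10 enzymes that build, lengthen and desaturate fatty acids: Fasn, Elovl1, Elovl3, Elovl4, Elovl5, Elovl6, Scd1, Scd2, Fads1 and Fads2. They were followed across normal mouse skin and p53-deficient skin carcinomas. A gene was taken when the array annotation gave a probeset its symbol alone. All 10 of 10 genes were found, with 23 of the 45101 probesets of the array. Where a gene had several probesets, the brightest one on average over the 20 arrays stood for it, which left 10 members among 18193 genes, and the other 13 probesets served as a check. RNA had been measured in 8 carcinomas from k14Cre;p53loxP/loxP;pRbloxP/loxP mice, named RbΔEC; Trp53ΔEC tumors, in 7 carcinomas from k14Cre;p53loxP/loxP mice, named Trp53ΔEC tumors, and in 5 samples of skin from wild type mice. All mice were of FVB strain. The keratin-driven Cre deletes the floxed alleles in stratified epithelia, so stroma, fat, muscle and blood cells of the tumors keep them. Both tumor genotypes share the loss of p53, and the skin was wild type. The skin donors were 2 months old and tumor ages are not labelled, so effects of age cannot be told apart from those of the tumor. By histology, 5 tumors were undifferentiated or spindle cell carcinomas (3 and 2), 4 were mixed and 6 were poorly differentiated. The RbΔEC; Trp53ΔEC tumors fell into 3 undifferentiated or spindle, 1 mixed and 4 poorly differentiated, and the Trp53ΔEC tumors into 2, 3 and 2. Whether the tumors arose in separate mice is not labelled, and p-values therefore reflect the variation among these particular samples, which may be technical in part.

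Fatty acid synthase makes palmitate from malonyl-CoA. The ELOVL enzymes of the endoplasmic reticulum then lengthen fatty acids, each with its own preference for chain length and saturation, and the SCD and FADS desaturases put in double bonds. In skin, these steps feed sebum, membrane and storage lipids and the very long acyl chains of the ceramides that seal the outer epidermis.

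All levels are log2 values of the authors' RMA processing, in which 1 unit is a doubling of signal, and they ran from 2.337 to 14.718 over the array. Array medians lay between 5.585 and 5.753. Probes differ in how strongly they bind, so levels were compared between samples and not between genes. A gene was called higher or lower when limma's moderated test gave an adjusted p under 0.05 over all 18193 genes. Rb1, the second targeted gene, had values of 6.55 to 8.14 in RbΔEC; Trp53ΔEC tumors and 7.85 to 8.84 in Trp53ΔEC tumors, against 8.95 to 9.26 in normal skin, and the genotypes overlapped. Whether its probeset lies inside the deleted part was not looked up, and Trp53 was not analysed here.

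Promoter windows of 300 bases, from 250 before to 50 after an annotated start, were matched for 6 of the members in RefSeq (GRCm38.p6). Those of 4 are shown because their genes carry the patterns below. Elovl4 had the largest difference by histology among the members, and Fads2 stood out in mixed tumors. Fasn and Elovl5 were lower than skin in each tumor class, as were Elovl6 and Scd1, which are not shown. Capitals mark a CCAAT box (CCAAT), a GC box (GGGCGG) or an E-box (CACGTG), on either strand.
Elovl4, chr9:83806256-83806555, minus strand: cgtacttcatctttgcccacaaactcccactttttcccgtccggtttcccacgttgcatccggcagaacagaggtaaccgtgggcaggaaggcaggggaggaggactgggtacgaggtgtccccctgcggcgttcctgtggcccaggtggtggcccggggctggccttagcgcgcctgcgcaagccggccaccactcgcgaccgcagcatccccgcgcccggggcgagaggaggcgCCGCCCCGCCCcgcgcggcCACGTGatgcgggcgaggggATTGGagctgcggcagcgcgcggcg
Fads2, chr19:10101454-10101753, minus strand: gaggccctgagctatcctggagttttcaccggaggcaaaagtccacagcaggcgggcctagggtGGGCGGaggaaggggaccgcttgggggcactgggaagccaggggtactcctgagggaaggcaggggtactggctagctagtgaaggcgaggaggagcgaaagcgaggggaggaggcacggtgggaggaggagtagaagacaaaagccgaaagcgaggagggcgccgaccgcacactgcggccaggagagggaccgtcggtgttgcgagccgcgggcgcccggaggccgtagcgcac
Fasn, chr11:120824498-120824797, minus strand: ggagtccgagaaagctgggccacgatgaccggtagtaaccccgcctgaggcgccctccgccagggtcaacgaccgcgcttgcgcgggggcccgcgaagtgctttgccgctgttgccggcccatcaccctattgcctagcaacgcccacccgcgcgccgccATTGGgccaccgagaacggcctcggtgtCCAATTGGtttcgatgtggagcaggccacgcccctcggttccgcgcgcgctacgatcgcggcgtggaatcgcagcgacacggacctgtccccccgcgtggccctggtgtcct
Elovl5, chr9:77917115-77917414, plus strand: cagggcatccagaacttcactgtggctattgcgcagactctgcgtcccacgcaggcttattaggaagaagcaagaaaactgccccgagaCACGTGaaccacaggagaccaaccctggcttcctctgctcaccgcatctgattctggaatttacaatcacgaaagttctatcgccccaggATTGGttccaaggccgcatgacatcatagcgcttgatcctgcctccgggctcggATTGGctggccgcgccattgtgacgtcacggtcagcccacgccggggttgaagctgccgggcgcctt
The Fasn window held 3 CCAAT boxes, 2 of which overlap on opposite strands, and the Elovl5 window held 2 CCAAT boxes and 1 E-box. The Elovl4 window held 1 CCAAT box, 2 overlapping GC boxes and 1 E-box that lies just after the start, whereas the Fads2 window held 1 GC box. Among the windows not shown, that of Elovl6, which was also lower than skin in each class, held no CCAAT box, GC box or E-box. The first Elovl1 window held 1 CCAAT box and 5 GC boxes and the other held 2 GC boxes. No window was matched for Scd1. Of all 32851 promoter windows of this length, 37.4% held CCAAT, 35.7% GGGCGG and 7.15% CACGTG. A sequence like the element bound by the SREBP lipogenic factors (TCACNCCAC) was in 1.24% of all windows and in 0 of the 7 windows of the members. These matches describe letters and not bound sites.

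To place the members in tumors, all 15 carcinomas were first compared with normal skin. Of the 10 members 1 was higher (Scd2) and 6 were lower (Elovl1, Elovl4, Elovl5, Elovl6, Scd1 and Fasn), against 17.7% of all genes called higher and 18.0% called lower. The members' median log2 difference was -1.48, and that over all genes was 0.02. The tumors were far from uniform, however, and the plot of the members by class shows that several members differed between histological classes.

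**Figure D1:**
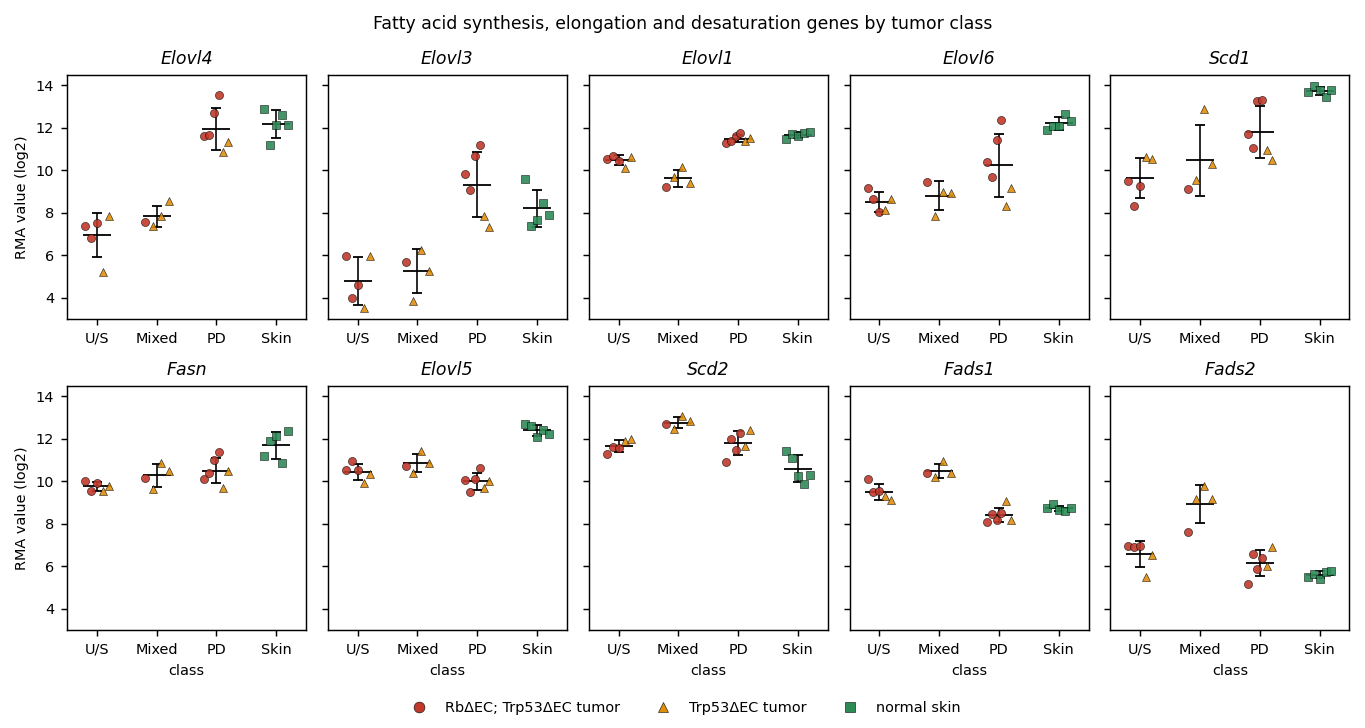
Log2 RMA value of each member in every sample, by class: undifferentiated or spindle cell carcinomas (U/S, n = 5), mixed (n = 4), poorly differentiated (PD, n = 6) and normal skin (n = 5). Marker shape and colour give the genotype, and black bars give the class mean and SD. Elovl4 and Elovl3 drop in U/S and mixed tumors, Elovl5 lies below skin in each class, and Fads1, Fads2 and Scd2 are highest in mixed tumors.

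The comparison by grade asks which genes differ between the least differentiated carcinomas and those that keep epithelial features. Among the members 4 were lower (Elovl1, Elovl3, Elovl4 and Scd1) and 1 was higher (Fads1) in undifferentiated or spindle tumors than in poorly differentiated ones, with 9.9% of all genes called lower and 12.7% called higher. The median of the members was -0.89, against 0.01 over all genes.

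Elovl4, which makes the ultra-long chains of barrier acylceramides, set these classes apart most clearly. Its values were 6.81, 7.53, 7.84, 7.37 and 5.21 in undifferentiated or spindle tumors and 7.56, 7.40, 7.83 and 8.54 in mixed tumors. In poorly differentiated tumors they ran from 10.87 to 13.54 with a median of 11.65, and in normal skin they were 12.88, 11.17, 12.15, 12.58 and 12.12. All undifferentiated, spindle and mixed tumors lay below all poorly differentiated tumors and all skin samples, while poorly differentiated tumors and skin overlapped. The difference was -5.01 ± 0.55 (SE; 32.2-fold lower, limma adjusted p = 6.63e-05) between undifferentiated or spindle and poorly differentiated tumors, and -4.12 ± 0.49 (adjusted p = 0.00078) between mixed and poorly differentiated tumors. Poorly differentiated tumors differed from skin by -0.22 ± 0.46, which did not pass limma's test (adjusted p = 0.726). The second Elovl4 probeset gave -4.97 by grade. Against skin, the 15 tumors as one group differed by -2.99 ± 1.1 (limma adjusted p = 0.0395), and without the mixed tumors this was -2.5 and missed the threshold (adjusted p = 0.113). The call was also lost without any 1 skin sample, mixed tumor or undifferentiated or spindle tumor other than Trp53ΔEC tumor 1, with an adjusted p up to 0.0907.

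Elovl3, which lengthens saturated and monounsaturated chains and is known from sebaceous glands, hair follicles and brown fat, followed a like order. It had values of 3.99, 4.58, 5.97, 5.96 and 3.52 in undifferentiated or spindle tumors and 5.67, 3.84, 6.25 and 5.24 in mixed tumors. Poorly differentiated tumors ran from 7.31 to 11.21 with a median of 9.44, and normal skin had 9.59, 7.39, 7.66, 8.47 and 7.90. No undifferentiated, spindle or mixed tumor reached the lowest poorly differentiated tumor or skin sample. Its difference by grade was -4.52 ± 0.74 (limma adjusted p = 0.00115), and that of mixed against poorly differentiated tumors was -4.07 ± 0.79 (adjusted p = 0.00927). The values of undifferentiated, spindle and mixed tumors lay around or below the array medians and the files hold no detection calls, so no fold is given. The 4 poorly differentiated tumors of the RbΔEC; Trp53ΔEC genotype had 9.82, 9.07, 10.67 and 11.21, and the 2 of the Trp53ΔEC genotype had 7.87 and 7.31. The tumors as a whole, with 1 class near or above skin and the others below it, differed from skin by -1.47 ± 1.1, which missed the threshold (limma adjusted p = 0.324).

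Elovl1, which lengthens saturated and monounsaturated very long chains in most tissues, was lowest in mixed tumors. Its values were 10.68, 10.45, 10.61, 10.52 and 10.09 in undifferentiated or spindle tumors and 9.23, 9.68, 10.17 and 9.41 in mixed tumors, and those of poorly differentiated tumors ran from 11.28 to 11.76. Normal skin had 11.48, 11.70, 11.61, 11.77 and 11.82. Poorly differentiated tumors and skin overlapped, and both lay above all other tumors. By grade the difference was -1.02 ± 0.13 (limma adjusted p = 0.000193), and that of mixed against poorly differentiated tumors was -1.87 ± 0.18 (adjusted p = 0.000292). Undifferentiated or spindle tumors were higher than mixed tumors by 0.85 ± 0.21 (limma adjusted p = 0.0321), with Trp53ΔEC tumor 1, at 10.09, inside the mixed range, and this call was lost with genotype as a covariate (adjusted p = 0.0539) and without any 1 tumor other than Trp53ΔEC tumors 1 and 5 (up to 0.0857). All tumors against skin gave -1.02 ± 0.36 (limma adjusted p = 0.0323), and leaving out any 1 skin sample moved the adjusted p to between 0.0503 and 0.0716. The kept Elovl1 probeset is of the _x_at type, which can bind related transcripts, and the 3 others gave -1.78 to -1.96 in mixed against poorly differentiated tumors.

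Elovl6, which lengthens palmitate to stearate, and Scd1, which turns stearate into oleate and is the main sebaceous isoform, varied widely among poorly differentiated tumors. Elovl6 had values of 8.64, 8.02, 8.64, 9.15 and 8.11 in undifferentiated or spindle tumors and 9.43, 7.86, 8.98 and 8.95 in mixed tumors. Poorly differentiated tumors ran from 8.31 to 12.38 with a median of 10.03, and normal skin had 11.90, 12.07, 12.08, 12.67 and 12.33. Only RbΔEC; Trp53ΔEC tumor 8, at 12.38, reached the skin range. All tumors together differed from skin by -2.93 ± 0.56 (7.64-fold lower, limma adjusted p = 0.000329). By grade the difference was -1.71 ± 0.63 and missed the threshold (limma adjusted p = 0.0744), and it passed without Trp53ΔEC tumor 4 (-2.1, adjusted p = 0.0186). It also passed in 1 limma fit of all 20 samples (adjusted p = 0.0223) and with mixed tumors counted as undifferentiated or spindle (-1.58, 0.0446). Within RbΔEC; Trp53ΔEC tumors it passed as well (-2.36, limma adjusted p = 0.045).

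Scd1 values were 8.32, 9.27, 10.51, 9.51 and 10.62 in undifferentiated or spindle tumors, and 9.14, 9.52, 12.88 and 10.30 in mixed tumors. Poorly differentiated tumors ran from 10.46 to 13.32 with a median of 11.38, and normal skin had 13.67, 13.98, 13.78, 13.46 and 13.76. Every tumor lay below every skin sample. The difference of tumors from skin was -3.01 ± 0.66 (8.07-fold lower, limma adjusted p = 0.00132), and the second Scd1 probeset gave -1.45, which missed the threshold over all probesets (adjusted p = 0.0788). By grade Scd1 differed by -2.14 ± 0.6 (limma adjusted p = 0.0244) with overlapping groups. This call was lost when RbΔEC; Trp53ΔEC tumor 1, 3 or 5 was left out (adjusted p up to 0.0607), and with the methods' t-test (0.0543). It was lost too with mixed tumors counted as undifferentiated or spindle (-1.78, limma adjusted p = 0.0694).

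Fasn and Elovl5, which lengthens polyunsaturated chains, were lower than skin in each of the 3 classes, as were Elovl6 and Scd1. Fasn ran from 9.55 to 11.37 over all 15 tumors with a median of 10.11, against 11.18, 11.89, 12.14, 10.87 and 12.35 in normal skin, and 2 tumors, both poorly differentiated and of the RbΔEC; Trp53ΔEC genotype, reached the skin range. The difference was -1.49 ± 0.29 (2.81-fold lower, limma adjusted p = 0.000382). By grade Fasn was at -0.75 ± 0.26 and missed the threshold (limma adjusted p = 0.0623), and it passed without Trp53ΔEC tumor 4 (-0.92, adjusted p = 0.0137). It also passed when genes with a mean log2 value under 6 were left out (limma adjusted p = 0.0477). Elovl5 ran from 9.48 to 11.40 over the tumors with a median of 10.37, and skin had 12.67, 12.62, 12.06, 12.39 and 12.20. All tumors lay below all skin samples, at -2.02 ± 0.23 (4.04-fold lower, limma adjusted p = 1.17e-06). The kept Elovl5 probeset is also of the _x_at type, and the other one gave -1.83 (limma adjusted p = 6.41e-06 over all probesets). In contrast with Elovl4, the lowest class of Elovl5 was the poorly differentiated one. Its medians were 10.53 in undifferentiated or spindle tumors and 10.8 in mixed tumors, against 10.03 in poorly differentiated ones. By grade Elovl5 differed by 0.45 ± 0.22 with overlapping groups and missed the threshold (limma adjusted p = 0.176). Mixed tumors were above poorly differentiated ones by 0.84 ± 0.25 (limma adjusted p = 0.0483), a call that was lost with genotype as a covariate (adjusted p = 0.078) and without any 1 tumor other than Trp53ΔEC tumor 3 or RbΔEC; Trp53ΔEC tumor 8 (up to 0.106).

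Scd2, Fads1 and Fads2 were highest in mixed tumors. Scd2 is the stearoyl-CoA desaturase of brain and of newborn skin, and FADS1 and FADS2 insert the double bonds of long polyunsaturated fatty acids such as arachidonate. Fads2 had values of 6.91, 6.96, 6.55, 6.94 and 5.50 in undifferentiated or spindle tumors. Mixed tumors had 7.63, 9.17, 9.76 and 9.16, poorly differentiated tumors ran from 5.17 to 6.91 with a median of 6.19, and normal skin had 5.48, 5.65, 5.39, 5.72 and 5.76. The 4 mixed tumors lay above all other samples, and the lowest of them was the RbΔEC; Trp53ΔEC one. Mixed tumors exceeded poorly differentiated ones by 2.78 ± 0.44 (limma adjusted p = 0.00318) and skin by 3.33 ± 0.37 (adjusted p = 0.000118). Fads2 in skin lay at the array medians, and some poorly differentiated tumors below them, so no fold is given. Undifferentiated or spindle tumors differed from mixed tumors by -2.36 ± 0.46 (limma adjusted p = 0.0134). The difference of Fads2 by grade was 0.42 ± 0.34 with overlapping groups and missed the threshold (limma adjusted p = 0.44). Both other Fads2 probesets were also higher in mixed than in poorly differentiated tumors, by 1.47 and 2.39. With the methods' t-test the adjusted p of Fads2 was 0.0593 for mixed against poorly differentiated tumors and 0.0973 for undifferentiated or spindle against mixed tumors. All tumors against skin gave 1.44 ± 0.59, which missed the threshold (limma adjusted p = 0.0664) but passed without Trp53ΔEC tumor 1 (0.0468) or RbΔEC; Trp53ΔEC tumor 2 (0.039).

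Fads1 had 9.48, 9.52, 9.12, 10.11 and 9.29 in undifferentiated or spindle tumors and 10.37, 10.20, 10.95 and 10.38 in mixed tumors. Poorly differentiated tumors ran from 8.10 to 9.05 with a median of 8.33, and normal skin had 8.76, 8.92, 8.66, 8.60 and 8.73. Its classes formed steps without overlap, with mixed tumors on top and undifferentiated or spindle tumors next, above both poorly differentiated tumors and skin. The difference by grade was 1.09 ± 0.21 (limma adjusted p = 0.00279), and that of mixed against poorly differentiated tumors was 2.06 ± 0.21 (4.18-fold higher, adjusted p = 0.000351). Undifferentiated or spindle tumors differed from mixed tumors by -0.97 ± 0.23 (limma adjusted p = 0.0264). The last call was lost without Trp53ΔEC tumor 1, 2 or 7 or RbΔEC; Trp53ΔEC tumor 3 or 5, with an adjusted p up to 0.0602. All tumors against skin gave 0.59 ± 0.4 for Fads1 (limma adjusted p = 0.274). The other Fads1 probeset had the same direction by grade but was not called over all probesets.

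Scd2 had 11.61, 11.57, 12.00, 11.30 and 11.90 in undifferentiated or spindle tumors and 12.70, 12.47, 13.06 and 12.82 in mixed tumors. Poorly differentiated tumors ran from 10.90 to 12.40 with a median of 11.82, and normal skin had 11.41, 11.10, 10.25, 9.89 and 10.31. Mixed tumors lay above all other samples, and the higher skin samples overlapped the other classes. All tumors exceeded skin by 1.42 ± 0.31 (2.67-fold, limma adjusted p = 0.0011), so Scd2 and Scd1 differed from skin in opposite directions. Mixed tumors exceeded poorly differentiated ones by 0.98 ± 0.28 (limma adjusted p = 0.0444), a call that was lost with genotype as a covariate (adjusted p = 0.106) and without any 1 tumor other than Trp53ΔEC tumor 6 or RbΔEC; Trp53ΔEC tumors 2 or 8 (up to 0.101). The difference by grade was -0.11 ± 0.26 (limma adjusted p = 0.816).

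**Figure D2:**
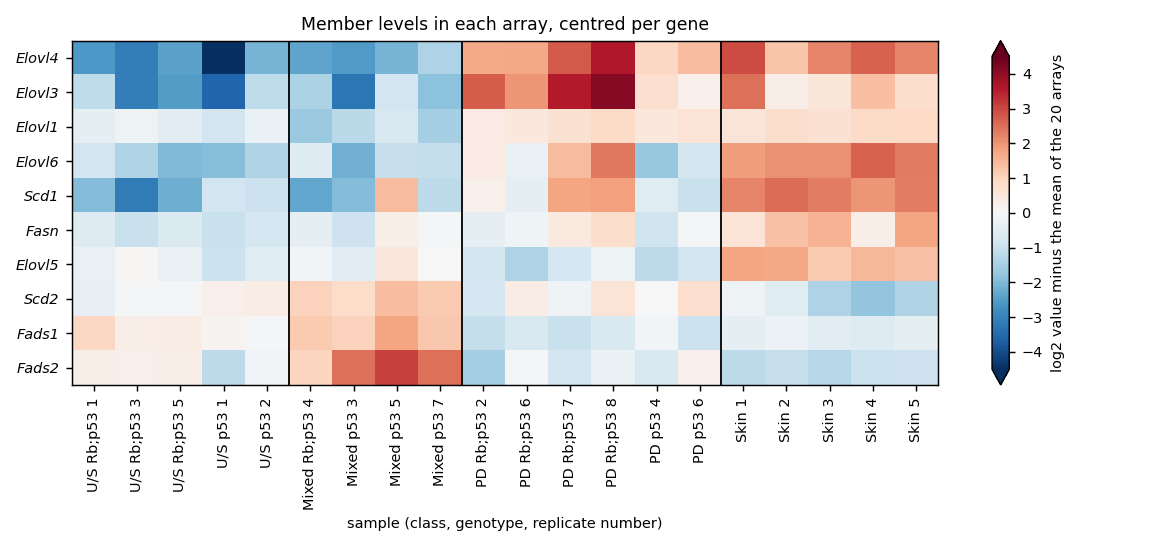
Log2 value of each member in each of the 20 arrays, minus the mean of that gene over all arrays (red above, blue below, colour scale to 4.5 on either side). Columns run from undifferentiated or spindle (U/S) and mixed to poorly differentiated (PD) tumors and skin, with genotype and replicate number. Mixed tumors pair low Elovl4, Elovl3 and Elovl1 with high Scd2, Fads1 and Fads2.

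Counted over the members, mixed tumors had 4 higher and 3 lower than poorly differentiated tumors, with 7.39% of all genes called higher and 6.95% called lower. The members' median was -0.78, against 0.0 over all genes. Undifferentiated or spindle tumors had 1 member higher and 3 lower than mixed tumors, against 6.53% of all genes called higher and 4.44% called lower, with medians of -0.67 over the members and 0.01 over all genes. For Elovl1, Elovl5, Fads1, Fads2 and Scd2 the mixed class lay outside, not between, the means of the other tumor classes. The mixed tumors were 3 Trp53ΔEC tumors and 1 RbΔEC; Trp53ΔEC tumor, so class and genotype are partly tied in these comparisons.

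Each class was then set against the same 5 skin samples, which the 3 comparisons share. Undifferentiated or spindle tumors had 3 members higher and 7 lower, with 25.7% of all genes called higher and 23.5% called lower. Mixed tumors likewise had 3 higher and 7 lower, where 20.1% of genes were called in either direction. Poorly differentiated tumors had 1 higher (Scd2) and 4 lower (Elovl5, Elovl6, Scd1 and Fasn), where 21.2% of genes were called higher and 22.0% lower. The median differences of the members were -1.93, -1.8 and -0.27 in these 3 classes, where the medians over all genes were 0.02, -0.01 and 0.0. Elovl5 differed from skin by -1.94, -1.55 and -2.39, Fasn by -1.93, -1.41 and -1.18, and Scd1 by -4.09, -3.27 and -1.95, in the same order of classes. Elovl4 differed by -5.23 and -4.35 in the first pair of classes and Elovl3 by -3.4 and -2.95, whereas in poorly differentiated tumors Elovl3 was at 1.12 ± 0.69 and missed the threshold (limma adjusted p = 0.214). Elovl6 was lower than skin in poorly differentiated tumors too, at -1.98 ± 0.61 (limma adjusted p = 0.02), and Scd1 there lost its call when all probesets of a gene were summarized by their median (-1.18, adjusted p = 0.081). In these tumors Fads1 passed without Trp53ΔEC tumor 4 (-0.45, adjusted p = 0.00744) and Fads2 without RbΔEC; Trp53ΔEC tumor 2 (0.75, adjusted p = 0.00961).

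**Figure D3:**
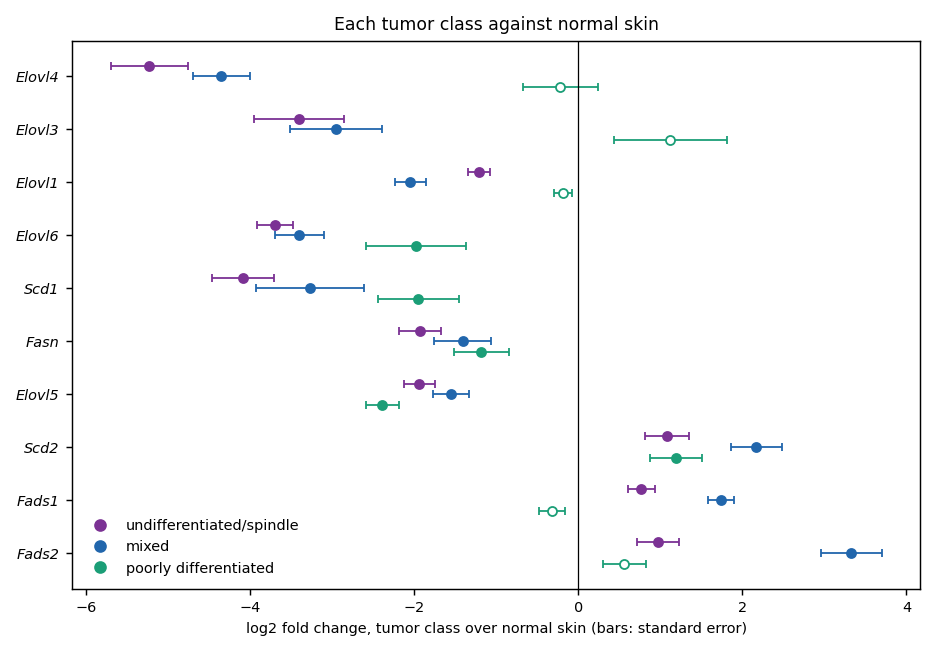
Log2 fold change of each member in undifferentiated or spindle (purple), mixed (blue) and poorly differentiated (green) tumors over the same 5 skin samples, with standard errors. Filled points passed limma's adjusted p of 0.05 and open points did not. Elovl4, Elovl3 and Elovl1 are open only in poorly differentiated tumors, and Fads2 reaches 3.33 in mixed tumors, over skin values that lie at the array medians.

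Genotype gave no call among the members. Between RbΔEC; Trp53ΔEC and Trp53ΔEC tumors 0 of 10 passed limma's test in either direction, where 0.011% of all genes were called higher and 0.022% lower, and 2 members had an unadjusted p under 0.05. These were Elovl6, at 1.32 ± 0.54 (adjusted p = 0.873), and Scd2, at -0.6 ± 0.27 (adjusted p = 0.929). Elovl6 values ran from 8.02 to 12.38 in RbΔEC; Trp53ΔEC tumors and from 7.86 to 9.17 in Trp53ΔEC tumors, and the groups overlapped. Elovl3 differed by 1.91 ± 1.16, and the members' median was 0.13. With histological class as a covariate, the difference of Elovl1 moved to -0.02 and that of Fads1 to 0.02. The genotypes held the classes in unequal numbers.

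The grade difference was also read within each genotype. In RbΔEC; Trp53ΔEC tumors (3 against 4) 5 members were lower and 1 was higher, where 7.34% of all genes were called lower and 8.18% higher. Elovl4 was at -5.15, Elovl3 at -5.35, Scd1 at -3.3, Elovl6 at -2.36, Elovl1 at -0.96 and Fads1 at 1.39. In Trp53ΔEC tumors (2 against 2) no member passed limma's test, where 1.73% of all genes were called lower and 0.923% higher. Elovl4 was at -4.58, Elovl3 at -2.85, Scd1 at -0.13, Elovl6 at -0.37, Elovl1 at -1.11 and Fads1 at 0.58. The test of the difference between genotypes called 0 of 10 members, as it called 0.0% of all genes, and Scd1 alone had an unadjusted p under 0.05 (-3.16 ± 0.91, adjusted p = 0.558).

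Neighbouring steps of lipid metabolism were read from lists of other genes, beside 18.0% of all genes called lower in tumors than in skin and 9.9% called lower by grade. Among 10 measured genes that supply precursors, 5 were lower in tumors than in skin and none was higher (median -0.72). They included both acetyl-CoA carboxylases, which make malonyl-CoA, with Acacb at -2.37 and Acaca at -1.16, and the acetyl-CoA synthetase Acss2 at -1.95. By grade 5 of the 10 were lower (median -0.61), among them Acss2 (-1.97) and the mitochondrial citrate carrier Slc25a1 (-1.47). Of 16 lipogenic regulators 7 were lower in tumors (median -0.56), led by Thrsp, a cofactor of lipogenesis, at -3.99, the phosphatidate phosphatase Lpin1 at -2.96 and the adipogenic receptor Pparg at -2.36. Of 13 other elongation and desaturation enzymes 3 were lower in tumors (median -0.33), a share near the 18.0% of all genes, with the third stearoyl-CoA desaturase, Scd3, at -4.14. By grade 5 were lower and 2 higher (median -0.84), with the elongase Elovl7 at -4.76 and the dihydroceramide desaturase Degs2 at -3.92.

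Barrier ceramide genes and cholesterol synthesis genes followed grade. Of 19 measured barrier ceramide and acylceramide genes 14 were lower and 1 was higher in undifferentiated or spindle tumors, with a median of -2.68. The ceramide synthase Cers3, which joins very long acyl chains to the sphingoid base, differed by -6.0, Nipal4 by -5.1 and the acyl chain hydroxylase Cyp4f39 by -4.25. In mixed tumors 14 of the 19 were lower than in poorly differentiated ones, with a median of -2.12, where 6.95% of all genes were lower. All 17 measured cholesterol synthesis genes were lower by grade, with a median of -1.44, led by Msmo1 (-2.8), Idi1 (-2.5) and Cyp51 (-2.03). Mixed tumors had 6 of these 17 lower than poorly differentiated ones and none higher (median -0.98). In poorly differentiated tumors 10 of the 17 were higher than in skin and none lower, with a median of 0.86, where 21.2% of all genes were higher. In contrast, all tumors against skin gave none in either direction and 0 with an unadjusted p under 0.05 (median -0.01). Acyl-CoA synthetases and uptake genes had 6 of 14 lower and 1 higher in tumors (median -0.58), led by the fatty acid translocase Cd36 (-4.08) and the fat cell carrier Fabp4 (-3.58). By grade 6 of the 14 were lower and 1 was higher (median -0.83), with Cd36 at -2.72 and the synthetase Acsbg1 at -2.38 among those lower, and the 1 higher was the synthetase Acsl6 at 3.79.

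**Figure D4:**
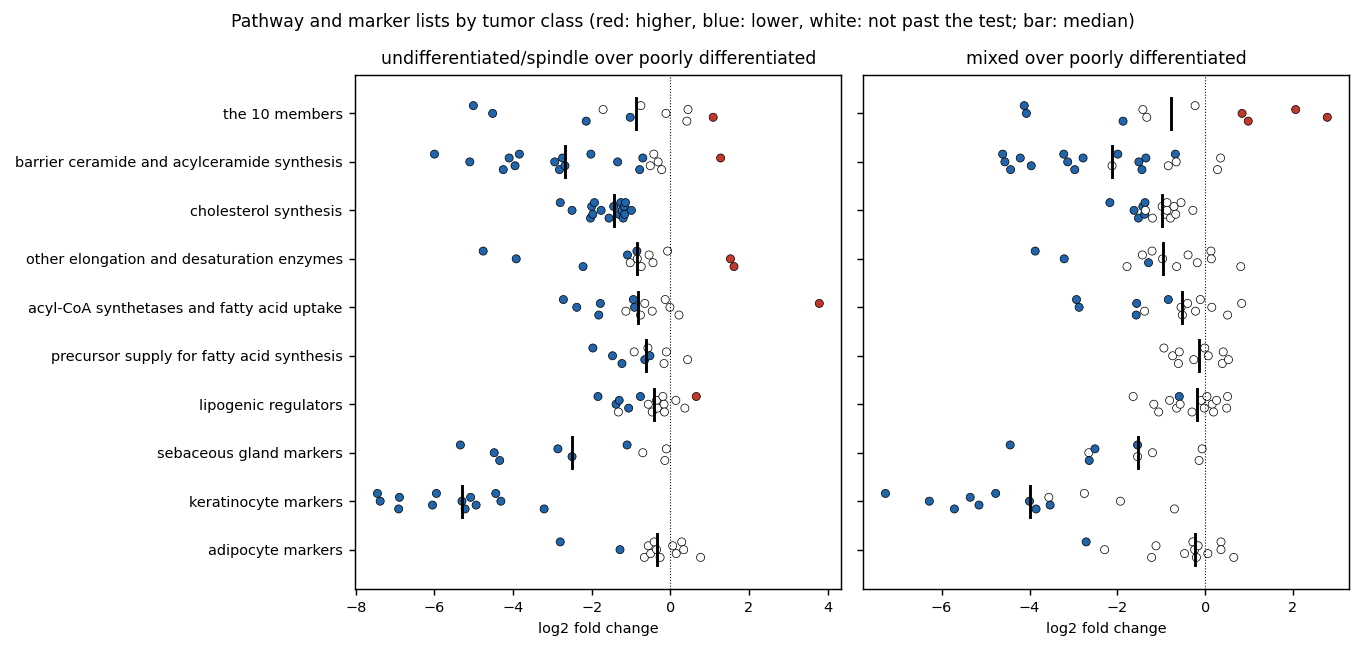
Log2 fold change of each measured gene of the members and of 9 pathway or marker lists, in undifferentiated or spindle (left) and mixed (right) over poorly differentiated tumors. Red points were higher and blue points lower by limma, white points did not pass the test, and black bars mark list medians. Barrier ceramide, cholesterol and keratinocyte genes lie to the left in both panels, while the members spread to both sides.

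Some lists of cell type markers also differed between these groups, and in bulk tissue fewer cells of a type and less RNA per cell cannot be told apart. Of all genes, 18.0% were lower in tumors than in skin and 9.9% were lower by grade. All 13 measured adipocyte markers were lower in tumors than in skin, and their mean level was 5.80 to 7.63 over the tumors, against 10.35 to 10.79 in skin. Adipoq, which defines fat cells, averaged 4.6 in tumors and 12.43 in skin. By grade 2 of these 13 were lower, and their mean level was 6.08 to 7.63 in undifferentiated or spindle tumors and 6.42 to 7.36 in poorly differentiated ones. Of 9 measured sebaceous gland markers 5 were lower in tumors than in skin and 6 were lower by grade. Their mean level was 6.42 to 6.94 in undifferentiated or spindle tumors, 6.56 to 7.66 in mixed tumors and 8.26 to 10.16 in poorly differentiated tumors, against 9.56 to 10.03 in skin. All 12 skeletal muscle markers were lower in tumors as well, with a mean level of 4.92 to 8.39, against 12.97 to 13.79 in skin. The part of these cells in the lower Scd1, Fasn, Elovl5 and Elovl6 levels was not tested.

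All 13 measured keratinocyte markers were lower by grade, and 9 were lower in mixed than in poorly differentiated tumors. Their mean level was 4.64 to 8.41 in undifferentiated or spindle tumors, 5.20 to 8.69 in mixed tumors and 10.95 to 12.2 in poorly differentiated tumors, against 11.44 to 11.8 in skin. The defining keratin Krt5 averaged 6.96, 9.86 and 13.85 in these tumor classes, against 13.33 in skin. Of 12 macrophage markers 8 were higher by grade, and of 12 fibroblast markers 6 were, where 12.7% of all genes were higher. Of 7 Schwann cell markers 4 were lower in tumors than in skin, where 18.0% of all genes were lower, and by grade 2 were higher and 2 lower. Of 14 hair shaft and sheath markers 1 was lower in tumors, a share below that of all genes. By grade 3 of these 14 were lower, where 9.9% of all genes were. In mixed against poorly differentiated tumors, where Fads1, Fads2 and Scd2 were higher, 0 of the 12 macrophage and 0 of the 12 fibroblast markers passed the test in either direction, with 2 and 0 at an unadjusted p under 0.05. Their medians were -0.93 and -0.06. Only 7.39% of all genes were called higher and 6.95% lower in this comparison, and counts of 0 are near these shares. In undifferentiated or spindle against mixed tumors, where Fads1, Fads2 and Scd2 were lower and Elovl1 higher, 11 of the 12 macrophage markers (median 2.74) and 6 of the 12 fibroblast markers (median 1.78) were higher. Of all genes 6.53% were higher there. In mixed tumors against skin 9 of the 12 macrophage markers were lower and 1 was higher (median -2.18), and 7 of the 12 fibroblast markers were lower. Of all genes 20.1% were lower in mixed tumors than in skin. The mean level of the macrophage markers was 10.36 to 11.35 in undifferentiated or spindle tumors, 7.55 to 8.62 in mixed tumors and 7.42 to 10.82 in poorly differentiated tumors, against 9.65 to 10.36 in skin. RNA quality was read from the log2 difference between the 3′ and 5′ probesets of Actb, which was 0.24 to 0.38 in undifferentiated or spindle tumors, 0.38 to 0.66 in mixed, 0.42 to 0.82 in poorly differentiated tumors and 0.50 to 1.19 in skin. The part of epithelial, macrophage and fibroblast content and of RNA quality in the differences of the members between tumor classes and from skin was not tested.

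Genes with the most similar course were sought for each member by the root mean square difference of centred log2 values over the 20 arrays. A distance is to be read against the member's own SD over these arrays, which was 0.87 for Fasn, 2.55 for Elovl4, 2.28 for Elovl3, 1.7 for Elovl6 and 1.87 for Scd1. Fasn was closest to Acaca, which makes its substrate, at 0.29. Elovl4 was closest to Adgrf4 (0.54) and Sdr16c5 (0.62), and Elovl3 to the epidermal transcription factor Ovol1 (0.9) and to Cyp4f39 (0.93), which is on the barrier list. Elovl6 was closest to Cyp2b19 (0.46) and Scd1 to Adig (0.65), with Sec14l4 in the second place for both (0.51 and 0.71). Within the members, Elovl3 and Elovl4 were nearest to each other (0.96), as were Elovl6 and Scd1 (0.93).

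The other 13 probesets had the direction of the kept one in 13 cases for tumors against skin, in 11 by grade, in 11 by genotype, in 10 for poorly differentiated tumors against skin, and in 13 for each of the other 4 class comparisons. In poorly differentiated tumors against skin the exceptions were 1 probeset each of Fads1 (0.14), Elovl6 (0.04) and Elovl1 (0.3), none past the test. By grade the exceptions were both other Scd2 probesets, at 0.07 and 0.5, and by genotype they were those of Elovl5 (-0.05) and Scd1 (0.31), none of which passed the test. Direction is a weaker check than the test. Of the 13 probesets, 5 were not called for tumors against skin, 9 by grade and 13 by genotype. For poorly differentiated, mixed and undifferentiated or spindle tumors against skin, 8, 1 and 0 were not called. In mixed against poorly differentiated tumors 6 were not called, and in undifferentiated or spindle against mixed tumors 8.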

How the data were processed

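Total RNA of 20 samples had been hybridised to Affymetrix MOE430 2.0 arrays, 1 sample per array. The authors deposited log2 values, background-corrected, normalized and summarized per probeset with RMA (version not given in the sources used here). Every sample column was matched to a labelled sample. Of 45101 probesets, 64 array controls were left out. A single symbol was annotated to 34945 probesets, more than 1 to 932, and no symbol to 9160. Gene identifiers of 204 probesets were not found in RefSeq (GRCm38.p6). The members, the 14 gene lists and the tests were chosen with earlier results of these data known.

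Each comparison was a limma 3.58.1 fit (lmFit and eBayes, R 4.3.3) of its own groups with two-sided p-values, adjusted by Benjamini-Hochberg over 18193 genes or, for other probesets, over 45037 probesets. The test was tried on simulated data for the comparison by grade only. The test of the grade difference between genotypes was tried on nearly noise-free made-up data. From each pathway list up to 3 genes past the test with the largest difference could be named, and for each member the 2 genes of nearest course. Krt5 was named outside this rule. Figures used Python 3.11.15 with matplotlib 3.10.9. Alternatives were the median of probesets, centring on array medians, leaving out genes with a mean log2 value under 6, the methods' t-test, genotype, class or replicate number in the fit, subsets of tumors and leaving out each sample. Those of mixed against other tumors with genotype as a covariate or 1 sample left out were chosen after seeing the data.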

Additional observations from a re-analysis of the deposited data

Results flagged for a closer look

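In 60 checks of members within groups of 4 to 8 samples, 2 values stood far from the rest of their group, and chance gives about 1 in 20. Scd1 was at 12.88 in Trp53ΔEC tumor 5, a mixed carcinoma, where the other Trp53ΔEC tumors had 9.52 to 10.93. Fads2 was at 5.5 in Trp53ΔEC tumor 1, a spindle cell carcinoma, where the other undifferentiated or spindle tumors had 6.55 to 6.96.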

How the results depend on the processing

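Undifferentiated or spindle and mixed tumors against skin had 3 members higher and 7 lower with each sample left out in turn, and the methods' t-test lost Fads2 in undifferentiated or spindle tumors (adjusted p = 0.0513) and Scd1 in mixed tumors (0.0871). For tumors against skin, 1 member was higher, but 2 were with the methods' t-test and 2 without the mixed tumors, and 1 to 2 with 1 sample left out. Those lower numbered 6, and 4 to 6 with 1 sample left out. Fads2 was the member gained (t-test adjusted p = 0.00439). By grade, 1 member was higher and 4 were lower, but 0 and 0 within Trp53ΔEC tumors, with 2 against 2 samples. In poorly differentiated tumors against skin 1 to 2 members were higher with 1 sample left out, the t-test lost Elovl6 (adjusted p = 0.0537), and centring on array medians gained Elovl1 (0.048) and Fads1 (0.0428) as lower. Mixed tumors had 4 members higher than poorly differentiated ones, but 2 with the median of probesets, 1 with the t-test, 2 with genotype as a covariate and 2 to 4 with 1 sample left out. Undifferentiated or spindle against mixed tumors had 1 higher, but 0 with the t-test, 0 with genotype as a covariate and 0 to 1 with 1 sample left out, and 3 lower, but 1 with the t-test and 2 to 4 with 1 sample left out (Fasn gained without Trp53ΔEC tumor 3, adjusted p = 0.0487). Small differences changed sign. Scd2 by grade was -0.11, but 0.07 with the median of probesets, 0.37 with mixed tumors counted as undifferentiated or spindle, and -0.29 to 0.01 with 1 sample left out, and Fads2 by grade was 0.42, but -0.43 within Trp53ΔEC tumors. By genotype, Elovl5 was 0.01, but -0.02 with the median of probesets, -0.02 with the replicate block and -0.1 to 0.18 with 1 sample left out. Scd1 was -0.05, but 0.13 with the median, 1.63 within poorly differentiated tumors and -0.43 to 0.3 with 1 sample left out. With class as a covariate Elovl1 moved to -0.02 and Fads1 to 0.02. For the difference of the grade effect between genotypes, the values with 1 sample left out were -0.11 to 0.41 for Elovl1, -1.89 to 0.74 for Elovl4 and -0.48 to 0.28 for Scd2. The cause of these changes was not tested. Same-numbered tumors of the genotypes correlated at -0.478 to 0.64. The highest were number 6 (0.64), both poorly differentiated, and number 1 (0.628), both spindle cell carcinomas. Histology was not taken into account, so these correlations cannot show whether the replicate numbers pair samples. The replicate block changed no call. Centring on array medians moved the median difference of all genes to between -0.12 and 0.05, and without centring it lay between -0.01 and 0.02. The groups hold 4 to 8 tumors or 5 skin samples, which limits precision, and dim genes such as Fads2 in skin lie near the array medians.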
